A study of Mus musculus with 12 samples.

Results

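The clustered histone genes lie in the Hist1 to Hist4 gene clusters, and most but not all of them encode replication-dependent histones. They were followed here in polyadenylated RNA of mouse lymphoma cells exposed to interferon-γ (IFN-γ). Genes were taken by symbol (Hist1h, Hist2h, Hist3h or Hist4h) and kept with at least 10 counts in at least 3 libraries. This gave 40 members of 53379 gene identifiers in the table. The table held 70 clustered histone genes in all, so 30 lay below the minimum. The group was chosen by the counts of Hist1h1c, a linker histone gene, which were lower after exposure. The values of Hist1h1c are therefore a description with no test, and the counts below are of the other members. The symbols and the count minimum chose the rest. At the edge of the minimum, Hist1h2ah and Hist2h2ac reached 10 counts in 3 libraries and Hist1h2bb and Hist1h2ag in 2.

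All 12 libraries come from an Eµ-myc B cell lymphoma line of the C57BL/6 strain, whose Myc transgene is under the immunoglobulin heavy chain enhancer Eµ. The groups, with 3 libraries each, were unstimulated cells and cells exposed to 5 ng/mL recombinant mouse IFN-γ for 1 h, 6 h or 24 h. Exposure was blocked with 50 µg/mL of a neutralising antibody (clone XMG1.2), and cells of every exposure were collected 24 h post stimulation, so the 1 h and 6 h groups were read some time after the block. The labels do not say whether the 24 h or unstimulated cells received antibody, when unstimulated cells were harvested, or whether the 3 libraries of a group are separate cultures. The p-values then measure only the spread between these libraries, which may be technical.

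Histone proteins wrap DNA: H2A, H2B, H3 and H4 form the core of the nucleosome, and the linker histone H1 binds where DNA enters and leaves it. Most clustered histone genes are transcribed mainly in S phase. Most of their mRNAs end just after a conserved 3′ stem-loop, bound by the stem-loop binding protein Slbp, and carry no poly(A) tail. Libraries made from poly(A) RNA see these genes only through tailed or carried-over transcripts, which some members make from a downstream poly(A) signal. The levels below are levels of such RNA and not of the whole histone mRNA pool. In bulk RNA, fewer cells making a transcript and less of it per cell cannot be told apart.

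The 3′ sequences are shown because they bear on which transcripts carry a tail. Each run is given 5′ to 3′ on the gene's own strand, on GRCm38, from GENCODE M21 transcripts. Capitals mark the stem-loop of 16 bases.

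Hist1h1c, chr13:23739507-23739532 (+): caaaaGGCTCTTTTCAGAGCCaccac
Hist1h1d, chr13:23555782-23555807 (+): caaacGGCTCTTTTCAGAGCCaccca
Hist1h4i, chr13:22040961-22040986 (-): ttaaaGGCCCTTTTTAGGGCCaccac
Hist1h2bg, chr13:23571838-23571863 (+): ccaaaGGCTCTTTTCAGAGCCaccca
Hist1h2bh, chr13:23542923-23542948 (-): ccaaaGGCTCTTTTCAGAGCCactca
Hist1h3g, chr13:23535884-23535909 (+): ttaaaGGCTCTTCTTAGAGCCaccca
Hist2h4, chr3:96262934-96262959 (-): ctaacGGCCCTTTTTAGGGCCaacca

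The annotated Hist1h1c transcript runs on for 840 bases past its stem-loop and that of Hist2h4 for 1257 bases, and both hold a poly(A) signal near the end. Hist2h2be, the second most abundant member, has no stem-loop match in its annotated transcript and ends beside such a signal. The annotated transcripts of Hist1h1d, Hist1h4i, Hist1h2bg, Hist1h2bh and Hist1h3g hold no AATAAA, the signal searched for, in their last 50 bases. Capitals mark AATAAA.

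Hist1h1c, chr13:23740330-23740359 (+): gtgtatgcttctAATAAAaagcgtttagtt
Hist2h2be, chr3:96223705-96223734 (+): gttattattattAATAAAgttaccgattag
Hist2h4, chr3:96261697-96261726 (-): tcgtatacataaAATAAAatcttaaaaaca

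A match to the histone stem-loop consensus, on the transcript strand with up to 2 mismatches of 16 bases, was found in 32 of the 40 members, in 28 of them with none. It was found in 14 of the 30 clustered histone genes below the minimum and in 3.57% of the longest transcripts of 21799 other protein-coding genes. Those other transcripts had a median length of 2690 bases, longer than most histone transcripts. Only annotated transcripts were searched, so a gene annotated without bases past its coding sequence shows no match. The Hist1h4k model of 312 bases, for example, has no match and stops short of the RefSeq end. A lack of a match is therefore not a lack of the stem-loop in the gene. In 19 members the gene model ran over 100 bases past the stem-loop, against 4 of the 30 genes below the minimum. Of the 12 members with the highest CPM (counts scaled by library size), 9 had such a model. Of the other 3, the model of Hist1h3g ended at the stem-loop, and Hist2h2be and Hist1h2bc had no match. Members with a model past the stem-loop had a median of 34 counts per library, those ending at it 10.1 and those with no match 22.9. A longer model also collects counts from more bases. In RefSeq, 17 of the 19 models end within 100 bases of the stem-loop, so a member's count depends on which annotation was used for counting. AATAAA stood in the last 50 bases of a transcript in 10 of 40 members and 59.4% of the other genes' longest transcripts.

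**Figure D1:**
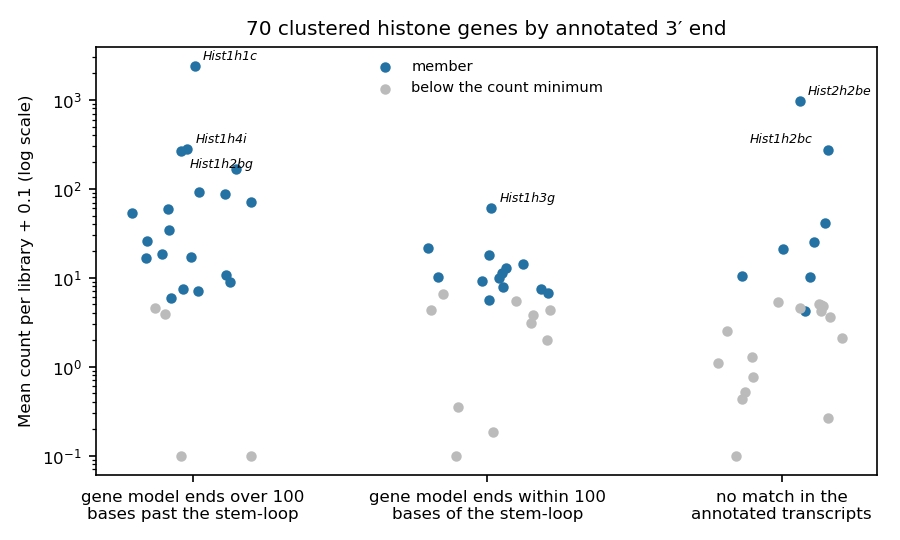
Mean count per library, plus 0.1 on a log axis, of the 70 clustered histone genes, split by where the annotated gene model ends relative to the stem-loop. Blue points are the 40 members and grey points the 30 genes below the minimum; Hist1h1c, with a model past the stem-loop, stands highest, and Hist2h2be, with no match, next.

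Promoters of the H1 genes share a short element, the H1 box, and are shown because the linker genes are set against the core genes below. Capitals mark AAACACA in RefSeq promoters (GRCm38.p6), which were found for 34 of the 40 members.

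Hist1h1b, chr13:21780725-21780753 (-): tggggactaacAAACACAatttgggattg
Hist1h1c, chr13:23738684-23738712 (+): tgaagtgtaacAAACACAagttgggcgca
Hist1h1d, chr13:23554899-23554927 (+): tgaggggcaacAAACACAgccacaaggca
Hist1h1e, chr13:23622656-23622684 (-): tgaggtgtaacAAACACAactccgcatct

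Within 250 bases upstream of the start, on either strand, AAACACA was present in 4 of 5 H1 members, 1 of 8 H2B members and 0 of the H2A, H3 and H4 members. It was present in 6.23% of 32789 other promoters. The octamer ATTTGCAT, bound by Oct factors, was present in 5 of 5 H2A and 4 of 8 H2B promoters and in 1.56% of the others. A match is a description of these letters only.

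By type the members were 5 H1, 6 H2A, 10 H2B, 8 H3 and 11 H4 genes, and 35 of the 40 lay in the Hist1 cluster on chromosome 13. Hist1h2aj, counted with the H2A genes here and below, is annotated as an unprocessed pseudogene. Library totals were between 49440358 and 67096610 counts. Levels were low: 11 members averaged at least 1 CPM and 29 lay below. Hist1h1c alone held 46.2% of all member counts and Hist2h2be 18.7%. Near-identical sequence is shared in this family: 27 members share over 10% of their 100-base windows with another clustered histone gene and 7 share over 50%, so reads can be split or lost in counting. Of the members, 9 overlap a second gene, among them Hist1h2be and Hist1h1e on the same strand, and their values are uncertain for the single gene. The 8 B cell markers were all tested. They summed to 2507 to 2571 CPM in unstimulated libraries, 2539 to 2559 at 1 h, 2551 to 2654 at 6 h and 2373 to 2380 at 24 h. Ebf1 was called higher at 1 h and 6 h, beside 0.273% and 1.17% of all genes. At 24 h 2 markers were called higher and 3 lower (in all Ms4a1, Pax5, Ebf1, Cd22 and Cd79a), beside 10.3% and 8.35% of all genes. T and NK cell markers summed to at most 1.37 CPM, with Cd4, Cd8a and Ncr1 at 0. Myeloid markers summed to at most 2.94 CPM and erythroid markers to at most 0.306 CPM. Stromal markers, with Col3a1 and Pdgfra at 0, summed to 57.4 to 58.9 CPM in unstimulated libraries, 58.9 to 62.2 at 1 h, 63.8 to 68.9 at 6 h and 87.2 to 91.5 at 24 h. Of these 6 markers, 1 was tested, Pecam1, and it made up nearly all of the sum, so the rise is that of 1 gene. Pecam1 stood at 58.0 ± 0.804 CPM in unstimulated cells, 60.5 ± 1.69 at 1 h, 66.6 ± 2.62 at 6 h and 89.4 ± 2.16 at 24 h. It was called higher at 6 h and 24 h (edgeR adjusted p = 0.0226 and 1.64e-11). Its part in the values below was not tested. IFNg_6h replicate 3 stood apart from the other 11 libraries on the second principal component over all genes (7.84% of the variance). Its counts differed from those of the other 6 h libraries with chi-square values, divided by the degrees of freedom, of 8.42 and 8.48, against 2.53 between those 2, so values at 6 h are also given without it.

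Per length of exon, Hist1h1c was the most abundant member, at 34.5 ± 0.582 RPKM in unstimulated cells (SD, n = 3; CPM per kilobase of exon). Hist1h2bg followed at 9.89 ± 2.79 RPKM, Hist2h2be at 7.21 ± 0.363, Hist1h4i at 6.87 ± 0.331 and Hist1h2bc at 5.12 ± 0.333. Hist2h2be and Hist1h4i did not differ beyond their SDs, and the SD of Hist1h2bg reached the level of Hist2h2be.

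Hist1h1c (ENSMUSG00000036181.2, chr13:23738808-23740367, plus strand, protein coding) encodes the linker histone H1.2. Its level was 53.2, 53.3 and 54.8 CPM in the unstimulated libraries. After 1 h of IFN-γ it was 37.5, 43.1 and 43.4 CPM, after 6 h 30.5, 33.1 and 35.1 CPM, and after 24 h 37.3, 33.8 and 39.95 CPM. All 9 exposed libraries lay below all 3 unstimulated ones. The 6 h libraries also lay below the 1 h libraries, while the 24 h libraries overlapped both. The log2 fold change against unstimulated cells was -0.38 ± 0.07 (SE) at 1 h, -0.71 ± 0.07 at 6 h and -0.54 ± 0.07 at 24 h. Without IFNg_6h replicate 3 the 6 h value was -0.76 ± 0.07. The 6 h mean, 32.9 ± 2.32 CPM (SD, n = 3), was 61.1% of the unstimulated mean of 53.8 ± 0.907 CPM. These 3 comparisons share the unstimulated libraries, and they are the ones for which the gene was chosen.

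The other linker genes were far lower. Hist1h1d, which encodes H1.3, stood at 1.22, 1.72 and 1.48 CPM in unstimulated cells. It was 0.633, 0.801 and 1.404 CPM at 1 h and 0.852, 0.791 and 0.749 CPM at 6 h. At 24 h it was 2.30, 1.19 and 1.55 CPM. Every 6 h library lay below every unstimulated and every 24 h library. Against unstimulated cells the 6 h change of -0.88 ± 0.28 (log2, SE) did not pass the test (edgeR adjusted p = 0.121, or 0.0367 with a filter of 1 count in any library), nor did 0.19 ± 0.26 at 24 h (edgeR adjusted p = 0.67). Hist1h1b (H1.5) had log2 changes of -1.12 ± 0.40 at 1 h, -0.84 ± 0.40 at 6 h and -0.13 ± 0.38 at 24 h, none past the test. Hist1h1a (H1.1) and Hist1h1e (H1.4) averaged 0.36 and 0.448 CPM, and neither passed against unstimulated cells. Hist1h1e had positive log2 values in all 3 comparisons, 0.53 ± 0.42, 0.35 ± 0.43 and 0.38 ± 0.42. Without IFNg_6h replicate 3 its 6 h value was -0.08 ± 0.46.

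**Figure D2:**
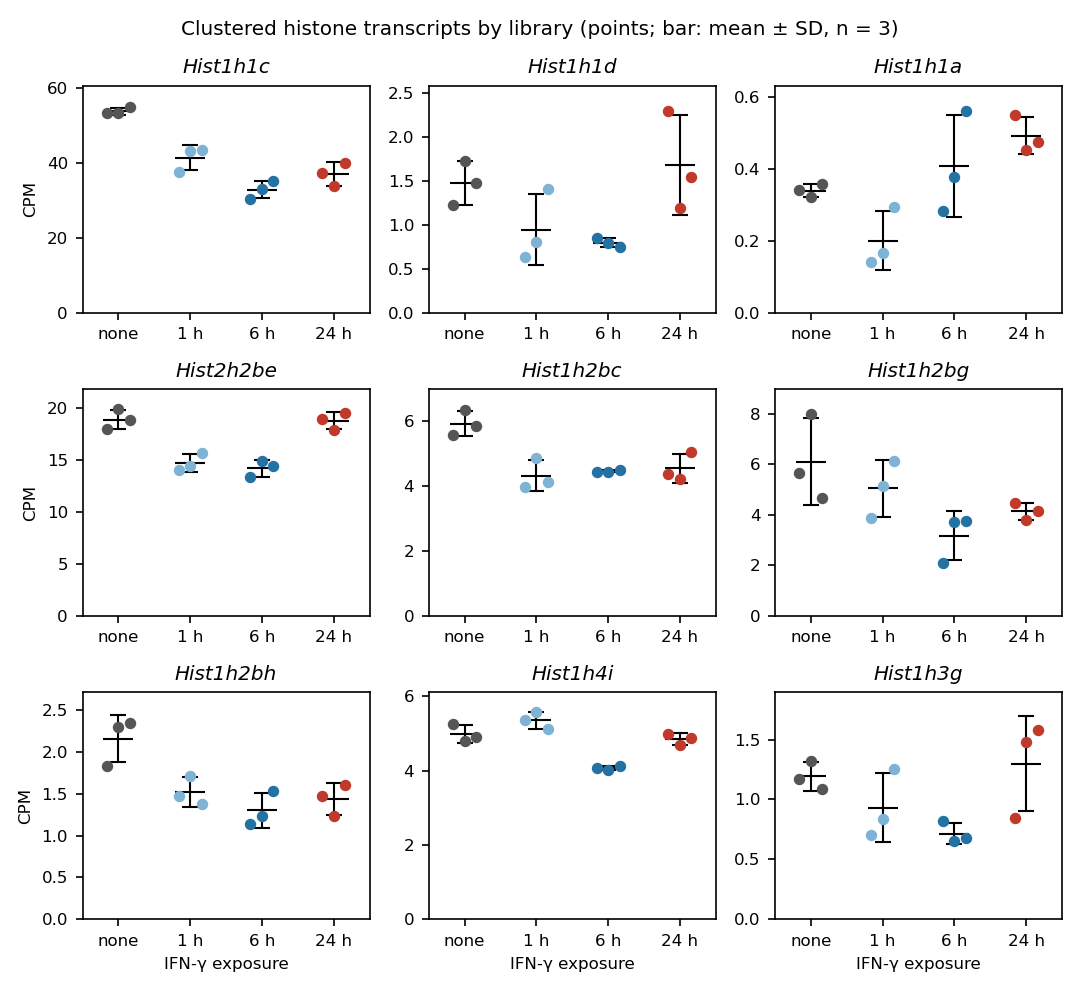
CPM of 9 members in each library (points), with the group mean ± SD (n = 3) as a bar, for unstimulated cells (none) and IFN-γ exposure of 1 h, 6 h and 24 h; each axis starts at 0. Hist1h1c is lower in all 9 exposed libraries than in the unstimulated ones, and Hist2h2be is low at 1 h and 6 h but at 17.9 to 19.5 CPM at 24 h.

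Among core genes, only Hist2h2be was called lower at both short exposures. The 1 h and 6 h groups also had a known antibody block and time after it before collection. The length of exposure therefore cannot be told apart from these in the values below. Hist2h2be (ENSMUSG00000068854.7, chr3:96221119-96223738, plus strand, protein coding) encodes an H2B whose poly(A) signal is shown above. Its level was 17.97, 19.9 and 18.8 CPM in unstimulated cells, 14.1, 14.45 and 15.7 CPM at 1 h and 13.3, 14.9 and 14.45 CPM at 6 h. At 24 h it was 19.0, 17.9 and 19.5 CPM. The 1 h and 6 h libraries lay below all unstimulated and 24 h libraries, and the last 2 groups overlapped. It fell by 0.36 ± 0.07 on the log2 scale at 1 h (edgeR adjusted p = 0.0229) and by 0.41 ± 0.07 at 6 h (edgeR adjusted p = 0.0021). At 24 h the change was -0.01 ± 0.07 (edgeR adjusted p = 0.964). The call at 1 h was lost when any of unstimulated replicates 1, 2 and 3 or IFNg_1h replicates 1 and 2 was left out (edgeR adjusted p up to 0.161). The call at 6 h held without each of its 6 libraries in turn.

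After 1 h of exposure, 1 of the other 37 tested members was called lower (Hist2h2be) and 0 higher. Of all 14299 genes tested, 0.147% were called lower and 0.273% higher. The log2 fold change was below 0 in 28 of the 37, with a median of -0.22 against 0 over all genes. The 1 h libraries all lay below the unstimulated ones in 6 of the 37 and above them in 1, beside 6.98% and 7.8% of all genes. After 6 h, 1 member was called lower (Hist2h2be) and 0 higher, beside 0.427% lower and 1.17% higher of all genes. There the log2 fold change was below 0 in 30 of 37, with a median of -0.41. The 6 h libraries all lay below the unstimulated ones in 12 of the 37 and above them in 0, beside 8.12% and 8.64% of all genes. Without IFNg_6h replicate 3, 39 other members were tested, 2 were called lower (Hist1h2bh and Hist2h2be) and 0 higher, beside 1.1% and 2.54% of all genes. The value was then below 0 in 32 of 39 with a median of -0.58, and the groups lay apart in the lower direction in 19 and the higher in 0, beside 15.8% and 17.5% of all genes. The 37 were 4 linker and 33 core genes. With all libraries, 2 of the 4 and 28 of the 33 had a value below 0 at 6 h. By type, the value was below 0 in 5 of 5 H2A, 7 of 10 H2B, 6 of 7 H3 and 10 of 11 H4 genes. The linker split depended on IFNg_6h replicate 3. Without it the values were -0.04 ± 0.47 (SE) for Hist1h1a, -0.93 ± 0.44 for Hist1h1b, -0.84 ± 0.31 for Hist1h1d and -0.08 ± 0.46 for Hist1h1e. Over all genes, log2 fold changes also ran with GC content (rank correlation -0.2 at 1 h and -0.189 at 6 h). They ran with exon length too (0.164 and 0.134). Tested genes had medians of 3709 exon bases and 49.3% GC, and most members were shorter and many richer in GC. The part of these trends in the members' medians and counts below 0 was not tested.

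After 24 h, 2 members were called lower, Hist1h2bc and Hist1h2bh, both H2B genes, and 0 higher. Of all genes, 8.35% were called lower and 10.3% higher, so the members' shares were no larger than these. The log2 fold change was below 0 in 16 of 37, with a median of 0.12 against 0.00 over all genes. The 24 h libraries all lay below in 6 and above in 2, beside 16.8% and 17.2% of all genes. By type, the value was below 0 in 3 of 5 H2A, 8 of 10 H2B, 1 of 7 H3 and 3 of 11 H4 genes, and in 1 of the 4 linker genes.

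Hist1h2bc (chr13:23684199-23692908, plus strand) was 5.57, 6.33 and 5.84 CPM in unstimulated cells and 4.36, 4.21 and 5.04 CPM at 24 h. It fell by 0.38 ± 0.12 on the log2 scale (edgeR adjusted p = 0.0261). At 1 h it was 3.955, 4.855 and 4.115 CPM and at 6 h 4.435, 4.42 and 4.49 CPM, log2 values of -0.46 ± 0.12 and -0.41 ± 0.12 that did not pass (edgeR adjusted p = 0.106 and 0.0857). All exposed libraries lay below the unstimulated ones. Without unstimulated replicate 2 or 3 or IFNg_24h replicate 1 or 2 the 24 h call was lost (edgeR adjusted p up to 0.108).

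Hist1h2bh (chr13:23541714-23543392, minus strand) was 1.83, 2.30 and 2.34 CPM in unstimulated cells and 1.48, 1.23 and 1.61 CPM at 24 h. It fell by 0.58 ± 0.20 on the log2 scale (edgeR adjusted p = 0.038). At 6 h it was 1.135, 1.24 and 1.535 CPM, a log2 value of -0.73 ± 0.20 that did not pass (edgeR adjusted p = 0.0594). The groups did not overlap in either comparison. The 24 h call was lost without the same 4 libraries as for Hist1h2bc (edgeR adjusted p up to 0.157), and with a filter of 1 count in any library (edgeR adjusted p = 0.0578). With DESeq2, Hist1h2bc passed at 1 h and 6 h (adjusted p = 0.0304 and 0.0389) and Hist1h2bh at 6 h (adjusted p = 0.0258).

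Hist1h2bg (chr13:23571396-23572013, plus strand) had the largest SD of the core genes in unstimulated cells, 1.72 CPM. It was 5.66, 8.01 and 4.65 CPM in unstimulated cells, 3.89, 5.16 and 6.14 at 1 h, 2.08, 3.70 and 3.76 at 6 h and 4.48, 3.78 and 4.15 at 24 h. The 6 h and 24 h libraries lay below the unstimulated ones. Its log2 value of -0.94 ± 0.24 at 6 h missed the threshold (edgeR adjusted p = 0.0836), though it passed with DESeq2 (adjusted p = 0.0377) and limma-voom (adjusted p = 0.0356). It shares 44.9% of its windows with another clustered histone gene.

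Hist1h4i, the most abundant H4 member, was 5.27, 4.81 and 4.91 CPM in unstimulated cells and 5.36, 5.57 and 5.13 CPM at 1 h. It was 4.06, 4.02 and 4.12 CPM at 6 h and 4.98, 4.68 and 4.89 CPM at 24 h. The 6 h libraries lay below the other 9, and its 6 h change of -0.30 ± 0.11 (log2) did not pass (edgeR adjusted p = 0.213). Hist1h2be, which overlaps Hist1h1e, had log2 values of 0.03 ± 0.17, 0.21 ± 0.17 and 0.27 ± 0.17 at 1 h, 6 h and 24 h. Hist1h2ac, an H2A gene, had log2 values of -0.49 ± 0.32, -1.02 ± 0.34 and -0.84 ± 0.33, with none past the test. Hist1h3d (H3) had values of -0.47 ± 0.27, -0.45 ± 0.27 and -0.49 ± 0.27. Hist3h2a, Hist1h4d and Hist1h4k averaged 1.503, 1.02 and 0.718 CPM and passed no test. The 22 members not named singly averaged 0.0699 to 0.371 CPM, and their standard errors at 6 h ran from 0.46 to 1.28 (log2) over the 20 tested.

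**Figure D3:**
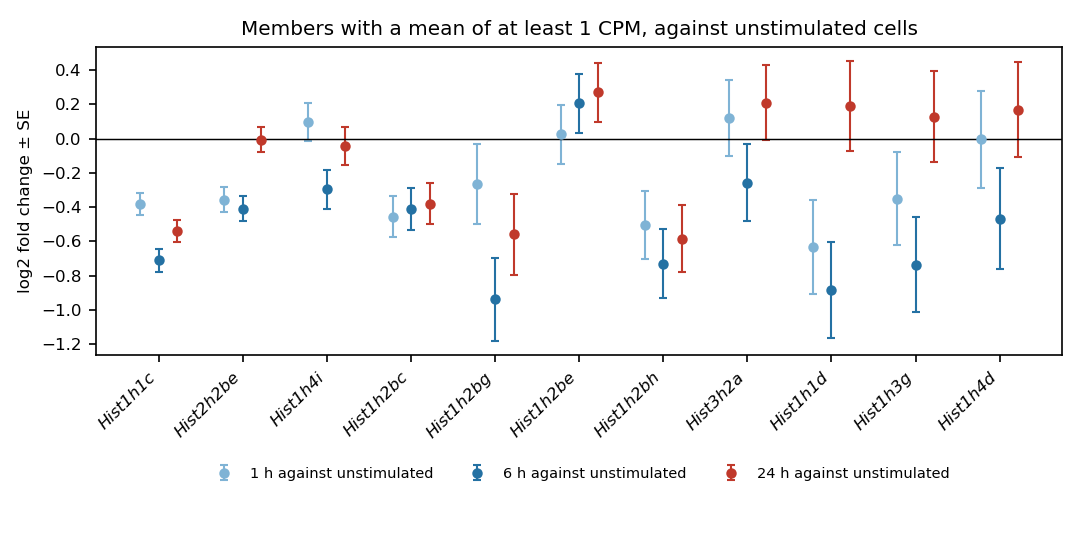
Log2 fold change ± SE against unstimulated cells for the 11 members with a mean of at least 1 CPM, at 1 h, 6 h and 24 h of IFN-γ exposure, in order of mean CPM. Hist1h1c, Hist1h2bc, Hist1h2bg and Hist1h2bh are below 0 at all 3 exposures, and Hist2h2be is at -0.01 at 24 h.

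The exposures were also compared with each other. Between 6 h and 1 h, 0 of the 37 other members were called by edgeR (5 had an unadjusted p under 0.05, and DESeq2 and limma-voom called 0). Of all genes, 0.0979% were called in either direction. The log2 fold change was below 0 in 24 of the 37, with a median of -0.22. The 6 h libraries lay below the 1 h libraries in 5 of the 37 and above them in 0, beside 5.16% and 5.14% of all genes. Without IFNg_6h replicate 3, 0 of 39 were called, beside 0.0274% lower and 0.137% higher of all genes. The value was then below 0 in 27 of 39, with a median of -0.36. The groups lay apart in the lower direction in 11 and the higher in 1, beside 12.9% and 13.8% of all genes. Between 24 h and 6 h, 4 members were higher at 24 h and 0 lower, beside 8.92% higher and 7.63% lower of all genes. The log2 fold change was above 0 in 33 of 37, with a median of 0.38. The 24 h libraries lay above the 6 h ones in 9 and below them in 1, beside 15.6% and 14.7% of all genes. The share of members called higher was near that of all genes. Without IFNg_6h replicate 3, 3 of 39 were called higher (Hist1h1d, Hist2h2be and Hist1h3c, an H3 gene named after its values were seen) and 0 lower, beside 10.6% and 8.54% of all genes, and the median was 0.53. Between 24 h and 1 h, 3 members were higher and 0 lower, beside 10.2% higher and 8.78% lower of all genes, and the median was 0.17. The 24 h libraries lay above the 1 h ones in 4 and below them in 3, beside 17.8% and 17.7% of all genes. These comparisons share libraries with each other and with those against unstimulated cells. In those of 24 h with 6 h or 1 h, exposure length cannot be told apart from the block or the time after it.

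Hist2h2be was higher at 24 h than at 6 h by 0.40 ± 0.07 on the log2 scale (edgeR adjusted p = 0.00022) and than at 1 h by 0.35 ± 0.07 (edgeR adjusted p = 0.000927). Both calls held without each of their 6 libraries in turn. Hist1h1d was higher at 24 h than at 6 h by 1.07 ± 0.28 (edgeR adjusted p = 0.007) and than at 1 h by 0.82 ± 0.27 (edgeR adjusted p = 0.0324). Without IFNg_24h replicate 1, its highest library, these were 0.79 (edgeR adjusted p = 0.0788) and 0.54 (edgeR adjusted p = 0.238). The second call was also lost without IFNg_1h replicate 1 or 2.

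The remaining 3 calls rest on few counts. Hist1h3g (H3) had 46, 38 and 36 counts at 6 h and 49, 82 and 106 at 24 h, and rose by 0.86 ± 0.28 (log2; edgeR adjusted p = 0.0295). Hist2h4 (H4) had 12, 12 and 2 counts at 6 h and 18, 29 and 31 at 24 h, and rose by 1.47 ± 0.49 (edgeR adjusted p = 0.0374). Hist1h1a had 8, 10 and 18 counts at 1 h and 32, 25 and 32 at 24 h, and rose by 1.28 ± 0.42 (edgeR adjusted p = 0.0326). The Hist1h3g call was lost without IFNg_6h replicate 2 or 3 or IFNg_24h replicate 2 or 3 (edgeR adjusted p up to 0.15), and with limma-voom (adjusted p = 0.0609). The Hist2h4 call was lost without any IFNg_6h library, IFNg_24h replicate 2 or 3, or IFNg_1h replicate 1 or 3 (edgeR adjusted p up to 0.152, with the value at 1.04 without IFNg_6h replicate 3), and in a fit of only the 6 libraries compared (edgeR adjusted p = 0.0636). The Hist1h1a call was lost without IFNg_1h replicate 1 or 2 or any IFNg_24h library (edgeR adjusted p up to 0.129).

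Linker and core counts were set against each other in every library. The 5 linker genes summed to 56.5 ± 0.834 CPM in unstimulated cells (SD, n = 3), 43.3 ± 3.88 at 1 h, 34.9 ± 2.69 at 6 h and 40.2 ± 3.20 at 24 h. The 35 core genes summed to 52.0 ± 3.62, 43.7 ± 4.07, 38.3 ± 2.41 and 48.0 ± 2.59 CPM. Core sums at 1 h and 6 h lay below all unstimulated libraries. Those at 24 h, from 45.6 to 50.7 CPM, overlapped the unstimulated range of 49.7 to 56.1 CPM. Without Hist2h2be the core genes summed to 31.2 to 36.3 CPM in unstimulated libraries and 25.7 to 32.2 at 1 h. They then summed to 22.55 to 26.2 CPM at 6 h and 27.7 to 31.22 at 24 h. Only the 6 h libraries lay below all unstimulated ones without this gene. Within the core, H2B summed to 36.8 ± 2.82, 29.2 ± 2.55, 27.2 ± 1.76 and 32.9 ± 1.78 CPM, and H4 to 8.69 ± 0.616, 8.91 ± 0.687, 6.62 ± 0.232 and 8.75 ± 0.361 CPM.

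The linker share of member counts was 52.9%, 50.1% and 53.5% in the unstimulated libraries and 49.4%, 50.9% and 49.0% at 1 h. It was 47.2%, 47.8% and 47.9% at 6 h and 46.3%, 44.6% and 45.8% at 24 h. Wilson 95% intervals were 3.47 to 4.47 points wide and cover counting error only. The 6 h and 24 h shares lay below all unstimulated and 1 h shares, and those at 24 h below those at 6 h. The mean at 6 h was 47.7% with IFNg_6h replicate 3 and 47.5% without it. The unstimulated and 1 h ranges overlapped. No test is given, since Hist1h1c holds 90.7% to 96.6% of the linker counts and chose the group. Without it the linker genes summed to 2.77 ± 0.153, 1.93 ± 0.623, 2.00 ± 0.373 and 3.19 ± 0.539 CPM, and the share was 5.06%, 4.17%, 4.93% and 6.24%, highest at 24 h.

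**Figure D4:**
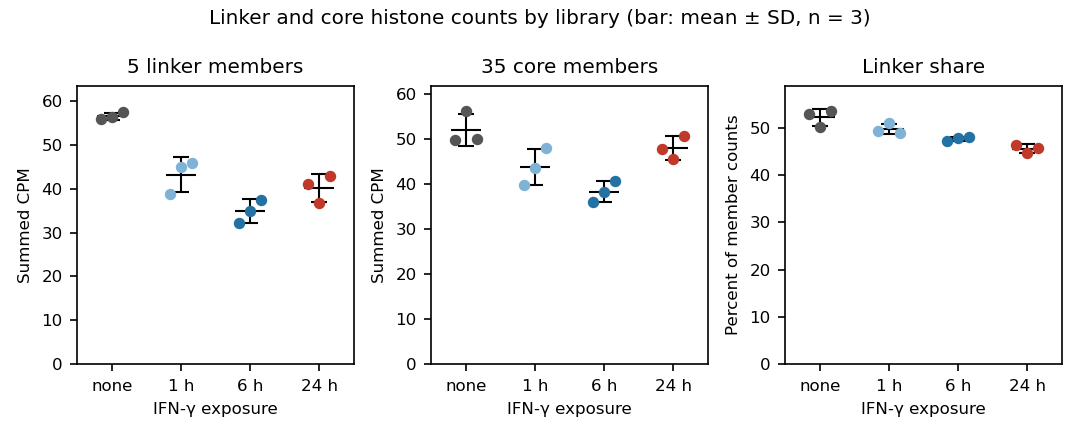
Summed CPM of the 5 linker and 35 core members and the linker share of member counts (percent), in each library (points) with the group mean ± SD (n = 3), by IFN-γ exposure; axes start at 0. At 24 h the mean core sum is 48.0 CPM, against 52.0 CPM in unstimulated cells. The mean linker sum is 40.2 CPM, against 56.5 CPM, and the mean share is 45.6%, against 52.1%. Hist1h1c, which chose the group, holds 90.7% to 96.6% of the linker counts.

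Genes around the histone mRNA cycle were read from lists chosen with earlier results of these data known. Of 18 genes for histone mRNA transcription and 3′ processing, 0 passed at 1 h or 6 h and 2 were lower at 24 h. That share is near the 8.35% of all genes called lower at 24 h and is no result about the list. Slbp, which binds the stem-loop, stood at 204 ± 13.9 CPM in unstimulated cells, 204 ± 5.62 at 1 h and 203 ± 5.08 at 6 h. At 24 h it stood at 182 ± 8.30 CPM and fell by 0.16 ± 0.05 on the log2 scale (edgeR adjusted p = 0.0157). Upf1, a helicase of mRNA decay, fell by 0.13 ± 0.04 at 24 h (edgeR adjusted p = 0.0453). Npat, the coactivator of histone genes, passed at no exposure. The list's median log2 fold change at 24 h was -0.04.

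Of 29 S phase and DNA replication genes, 0 passed at 1 h or 6 h, and 7 fell and 0 rose at 24 h. Of all genes, 0.147% were called lower at 1 h and 0.427% at 6 h, and 8.35% were called lower and 10.3% higher at 24 h. Mcm3, a subunit of the replicative helicase, stood at 522 ± 8.18 CPM in unstimulated cells and 435 ± 7.83 at 24 h, a fall of 0.26 ± 0.04 (log2; edgeR adjusted p = 7.33e-06). Gins2, another helicase subunit, fell by 0.27 ± 0.06 (edgeR adjusted p = 0.00314). The list's median log2 fold change was -0.03 at 6 h, where that of the histone members was -0.41, and -0.07 at 24 h. Of 13 histone chaperones, Chaf1a and Nasp fell at 24 h, by 0.14 ± 0.05 and 0.13 ± 0.05, and 0 passed at 1 h or 6 h, again beside 8.35% of all genes called lower at 24 h.

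The replacement histone genes listed here lie outside the clusters, and some of them, Cenpa among them, are also regulated over the cell cycle. Of 11 in the list 10 were tested. At 1 h 0 passed, at 6 h Cenpa rose and 0 fell, and at 24 h Cenpa, H2afj and H3f3a rose and 0 fell. Of all genes, 1.17% were called higher at 6 h, and 10.3% higher and 8.35% lower at 24 h. The 6 h call of Cenpa was lost without IFNg_6h replicate 3 (edgeR adjusted p = 0.0602). Cenpa, the centromeric H3, stood at 127 ± 6.03 CPM in unstimulated cells, 142 ± 1.80 at 6 h and 162 ± 6.51 at 24 h, a rise of 0.35 ± 0.04 (log2; edgeR adjusted p = 4.33e-07). H1f0, the replacement linker histone, stood at 8.41 ± 0.897 CPM in unstimulated cells and 7.34 ± 0.683 CPM at 6 h (edgeR adjusted p = 0.395).

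RNAs made without a long poly(A) tail, such as Rn7sk and the mitochondrial ribosomal RNAs, which carry short tails at most, were read as a gauge of RNA entering the libraries without one. Of 12 such genes 4 were tested. Their summed level ran from 835 to 1028 CPM in unstimulated libraries, 968.3 to 1205 at 1 h, 888.1 to 1027 at 6 h and 1012 to 1135 at 24 h, with Rmrp and Rny3 at 0. None passed at 1 h or 6 h. At 24 h, Rn7sk rose by 0.63 ± 0.20 on the log2 scale (edgeR adjusted p = 0.0243) and mt-Rnr1 by 0.33 ± 0.08 (edgeR adjusted p = 0.0144). Both were also called higher at 24 h than at 6 h. Of all genes, 10.3% were called higher at 24 h than in unstimulated cells and 8.92% higher than at 6 h. Any part of such RNA in the differences of the histone members was not tested.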

How the data were processed

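Gene counts of 12 libraries were used as the authors deposited them, in 1 table of raw counts. The submitters' processing notes name the mm10 build, Picard, featureCounts 1.4.3-p1 and STAR 2.5.2a. Annotation release and strand setting: not given in the sources used here. Of genes with 1 to 20 counts, 69.9% to 73.9% had an even count in each library, as when both mates of a pair are counted. All 40 members were matched to RefSeq by symbol or synonym. Stem-loops and poly(A) signals came from GENCODE M21 transcripts (GRCm38) and promoters from RefSeq (GRCm38.p6).

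The 4 groups of 3 entered 1 fit in edgeR 4.0.16 (under R 4.3.3; TMM scaling, filterByExpr by group, robust quasi-likelihood F tests, 8 residual degrees of freedom). P-values were adjusted by Benjamini-Hochberg over 14299 genes, called under 0.05; 38 of 40 members were tested. The script was tested on simulated data. The members and lists were chosen with earlier results of these data known. Named were every linker gene, the 12 highest core genes, every called member, and from each list its 2 largest called changes, or all where 5 or fewer were called; some of these list genes are given only in the counts. H1f0 and Npat were named outside this rule. Replicate numbers did not pair libraries. Alternatives were DESeq2 1.42.0, limma-voom (limma 3.58.1), other scaling, filters, halved counts, length and GC trends, a replicate block and each library left out.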

Additional observations from a re-analysis of the deposited data

Results flagged for a closer look

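Members below differed between 2 exposures by a test of that difference. Hist2h2be differed by 0.40 on the log2 scale between 24 h and 6 h and by 0.35 between 24 h and 1 h. Hist1h1d differed by 1.07 between 24 h and 6 h and by 0.82 between 24 h and 1 h. Hist1h3g differed by 0.86 and Hist2h4 by 1.47 between 24 h and 6 h, and Hist1h1a by 1.28 between 24 h and 1 h. In each the 24 h group was higher. Beside these, 8.92% of all genes were called higher at 24 h than at 6 h, and 10.2% higher than at 1 h.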

How the results depend on the processing

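The counts of called members are small, so single genes move them. At 1 h against unstimulated cells (1 member), DESeq2 called 2, an adjusted p under 0.01 left 0, and leaving out 1 library gave 0 to 1. At 6 h (1 member), DESeq2 and a filter of 1 count in any library each gave 4, limma-voom 2 and GC trend removal 2, and leaving out 1 library gave 1 to 2. A replicate block gave 2 there, alone and with the GC trend removed; the numbers did not pair libraries (same-number correlations -0.0656 to 0.0618 over 18 pairs), and the block moved no other count of calls by over 1.5 times. At 24 h (2 members), an adjusted p under 0.01 left 0 and leaving out 1 library gave 0 to 3. For 6 h against 1 h (0 members), the filter of 1 count gave 1 (Hist1h2bg). Under that filter the edgeR adjusted p of Hist1h2bg at 6 h against unstimulated cells was 4.91e-08, against 0.0836; the cause was not tested, nor were the causes of the other changes given here. For 24 h against 6 h (4 members), an adjusted p under 0.01 left 2 and leaving out 1 library gave 2 to 4. For 24 h against 1 h (3 members), these were 1 and 1 to 3.

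The linker share in unstimulated, 1 h, 6 h and 24 h cells was 43.9%, 40.9%, 40.6% and 38.0% per kilobase of exon, and 5.06%, 4.17%, 4.93% and 6.24% without Hist1h1c. Over members sharing under 10% of windows it was 68.8%, 67.4%, 65.2% and 61.9%. With no count minimum it was 46.9% at 6 h and 44.6% at 24 h. The value of Hist1h1c ran from -0.42 to -0.32 at 1 h, -0.76 to -0.66 at 6 h and -0.60 to -0.48 at 24 h over 24 alternatives, and no named member changed sign where it was called. Depth limits the 29 members below 1 CPM. The labels give no batch, and tailed and carried-over RNA cannot be told apart in these counts.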
